A study of Homo sapiens with 6 samples.

Results

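The SRP receptor, the signal recognition particle (SRP) and the Sec61 channel carry new proteins into the endoplasmic reticulum (ER), and 10 of their genes are described here, out of 28395 genes counted in H146 cells, an established small-cell lung cancer (SCLC) line. They are the 2 subunits of the SRP receptor (*SRPRA* and *SRPRB*), the 6 SRP proteins (*SRP9*, *SRP14*, *SRP19*, *SRP54*, *SRP68* and *SRP72*), and 2 subunits of the Sec61 channel (*SEC61A1* and *SEC61B*). *SRPRA* was chosen because it was higher after KIFC1 knockdown in these libraries, and the 9 others are its partners in ER entry, so the question is whether the partners moved with it. All 10 genes were found by symbol and passed the filter on low counts. By NCBI gene ID and RefSeq position on GRCh38, the partners are *SRPRB* (58477, chromosome 3 from 133784023 to 133828574), *SRP9* (6726, chromosome 1 from 225777826 to 225790464), *SRP14* (6727, chromosome 15 from 40035690 to 40039202), *SRP19* (6728, chromosome 5 from 112861287 to 112898371), *SRP54* (6729, chromosome 14 from 34982992 to 35029567), *SRP68* (6730, chromosome 17 from 76038785 to 76072517), *SRP72* (6731, chromosome 4 from 56467617 to 56503681), *SEC61A1* (29927, chromosome 3 from 128051641 to 128071683) and *SEC61B* (10952, chromosome 9 from 99222282 to 99230615).

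RNA was sequenced on day 2 after transfection, with 3 control siRNA libraries and 3 KIFC1 siRNA libraries. The control was a scrambled siRNA, the cells of both groups are labelled wild type, and the labels call the libraries of a group biological replicates. Knockdown was transient and in 1 cell line. The study bought 2 KIFC1 siRNAs, and the labels do not say which of them was used here. The names of the KIFC1 siRNA libraries carry KD_2, and no source used here says what that 2 stands for. *KIFC1*, the motor gene that the siRNA targets, was counted 14, 4 and 14 times with control siRNA but only 1, 1 and 0 times with KIFC1 siRNA (edgeR adjusted p = 0.0738, and 0.00459 with replicate number as a block). Most 32-base words of its transcript (87.9%) also occur on alternate sequences of the genome, and its counts are low. Apart from this sequencing, the study reports KIFC1 knockdown by its siRNAs in SCLC cells by RT-qPCR and immunoblotting. The libraries held 15392374 to 17754458 counts, and 8.34% to 13.1% of the counts lay on mitochondrial genes. The neuroendocrine genes *INSM1*, *CHGA*, *SYP*, *NCAM1* and *DLL3* summed to 1121 to 1137 CPM (counts scaled to library size) in control libraries and 980.1 to 1225 CPM in KIFC1 siRNA libraries. Of these 5, *NCAM1* (log2 fold change -0.42) did not pass an adjusted p of 0.05 in edgeR without that block and did with it and in DESeq2, and *CHGA* had 104 to 147 counts with control siRNA against 145, 818 and 482 with KIFC1 siRNA. Their part in the results was not tested. The 11 markers of other cell types (blood, stroma, endothelium and epithelium) summed to 18.4 to 23.9 and 21.5 to 24.6 CPM, with *CD3E* and *SFTPC* at 3 or fewer counts in every library. In bulk RNA, fewer cells of a type and less RNA per cell cannot be told apart.

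SRP is a ribonucleoprotein that binds the signal sequence of a nascent secretory or membrane protein as it leaves the ribosome and slows translation. Its SRP54 subunit is a GTPase that meets a related GTPase, SRPRA, at the ER membrane, where SRPRA is held by the membrane-anchored SRPRB. The ribosome is then handed to the Sec61 channel, through which the chain enters the ER. Neuroendocrine cells send peptide hormones and granule proteins along this route.

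*SRPRA* (NCBI gene ID 6734, chromosome 11 of GRCh38 from 126235930 to 126268895) stood alone among the 10 genes in the size of its difference, being 1.74-fold higher after KIFC1 knockdown, while the 9 partners lay between 0.81-fold and 1.14-fold of control. Scaled by edgeR's TMM method, *SRPRA* had 84.4, 80.9 and 85.2 CPM in control replicates 1 to 3 and 133.3, 154.7 and 148.5 CPM in KIFC1 siRNA replicates 1 to 3. The lowest KIFC1 siRNA library lay above the highest control library, and the control libraries lay close together (83.5 ± 2.31 CPM, SD, n = 3, against 145.5 ± 11.01 CPM, SD, n = 3). On the log2 scale the fitted difference was 0.80 (standard error, SE, 0.10), and it was between 0.75 and 0.86 with any 1 library left out. Since this rise chose the gene, the value is a description and is given without a test. Among the 11801 genes with a mean log2 CPM of at least 2, the log2 fold change of *SRPRA* ranked 36 from the largest rise. None of the 32-base words of its canonical transcript (0%) occurred a second time in the genome, nor on the alternate sequences.

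**Figure D1:**
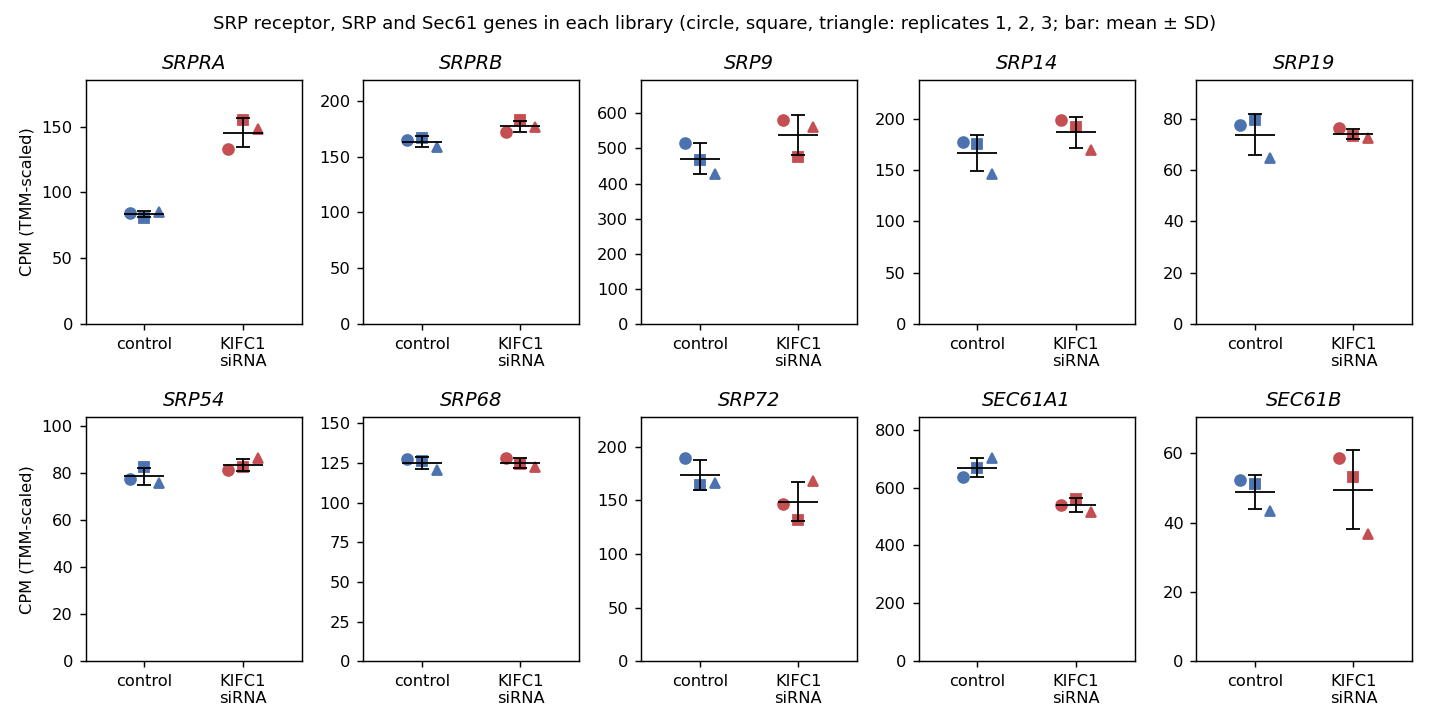
TMM-scaled CPM (y axis, from 0) of each of the 10 genes in the 3 control libraries (blue) and 3 KIFC1 siRNA libraries (red). Marker shapes show replicates 1, 2 and 3 and bars the mean ± SD. *SRPRA* separates widely between the groups (83.5 against 145.5 CPM), *SEC61A1* is lower in each KIFC1 siRNA library, and most other genes overlap.

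Short stretches of 3' UTR sequence are shown because a pair of sequence words had been found in earlier work on these same counts to be frequent in the 3' UTRs of genes that were higher (GCAACC) or lower (GAGATCT), and they show which of the 10 genes carry one. The words were picked on these libraries, so their presence is a description and supports no cause. Each stretch is written 5′ to 3′ on the strand of the gene, from GENCODE 44 canonical transcripts on GRCh38, with the word in capitals, and only that strand was searched. The *SRPRA* stretch lies at chr11:126263816-126263845 on the minus strand, that of *SRP72* at chr4:56503200-56503228 and that of *SRP19* at chr5:112869718-112869746, both on the plus strand.
SRPRA: tagagtatgtgaGCAACCtgtcttcagtgt
SRP72: tggcatctaaaGAGATCTtttttaaataa
SRP19: gtgactctcagGAGATCTgttggttttat
*SRPRA* was the only 1 of the 10 with GCAACC, at position 83 of a 3' UTR of 978 bases, and the word occurs in 23.2% of the 12971 tested genes with a 3' UTR of at least 50 bases. *SRP72* and *SRP19* held 1 copy of GAGATCT each, a word of 8.97% of those genes. *SEC61A1*, with 2021 bases of 3' UTR, held neither word, nor did the 6 others.

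*SRPRB*, the membrane anchor of the receptor, had 165.1, 166.9 and 158.2 CPM in the control libraries and 172.1, 182.3 and 176.7 CPM in the KIFC1 siRNA libraries. The groups did not overlap, but the difference was small, at 1.08-fold or a log2 fold change of 0.12 with a 95% interval of -0.09 to 0.32 (SE 0.10). Its adjusted p was 0.813 by the quasi-likelihood test of edgeR, adjusted over 14777 genes by Benjamini-Hochberg. The ratio of *SRPRA* to *SRPRB*, in reads per kilobase of canonical transcript, was 0.441, 0.418 and 0.464 in the control libraries and 0.668, 0.732 and 0.725 in the KIFC1 siRNA libraries. By canonical transcript length, the RNAs of the receptor subunits thus stood at 0.441 ± 0.023 (SD, n = 3) to 1 with control siRNA. After KIFC1 knockdown they stood at 0.709 ± 0.035 (SD, n = 3) to 1. Which transcripts of each gene these cells make was not measured. The ratio includes the gene chosen for its rise and was not tested.

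Of the 9 partners, 0 passed an adjusted p of 0.05 in edgeR, where 0.697% of all 14777 genes tested did. With DESeq2 the count was also 0, where 2.2% of the 12481 genes with a DESeq2 adjusted p passed. At an unadjusted p under 0.05 in edgeR without a block it was 1 (*SEC61A1*), where 9.26% of all genes were. Groups that did not overlap were found for 2 of the 9 (*SRPRB* higher and *SEC61A1* lower), against 15.5% of all genes. With replicate number as a block in edgeR, 1 partner (*SEC61A1*) passed, where 5.83% of all genes did. The unadjusted edgeR p in that fit was 0.000224 for *SEC61A1* and 0.0157 for *SRP72*, both lower. It was 0.0193 for *SRP9* and 0.0449 for *SRP14*, both higher, and 0.162 or more for the other partners. The share of all genes under an unadjusted p of 0.05 with the block was not counted. The median log2 fold change of the 9 partners was 0.02, beside 0.01 over all genes tested, with 7 positive and 2 negative. The upper 95% limits of the partners' log2 fold changes lay between -0.10 for *SEC61A1* and 0.44 for *SRP9*.

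**Figure D2:**
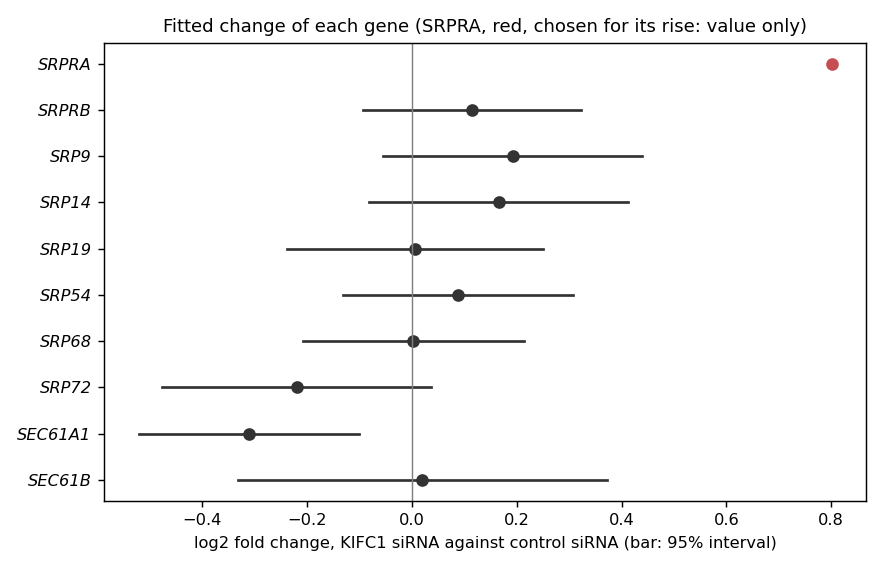
Fitted log2 fold change of each of the 10 genes, KIFC1 siRNA against control siRNA (x axis; points, with bars for the 95% interval of the 9 partners). *SRPRA* (red, value only, since its rise chose it) lies at 0.80, and the interval of *SEC61A1*, from -0.52 to -0.10, is the only 1 of the 9 that leaves out 0.

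Of the 6 SRP proteins, 5 had a positive log2 fold change and 1 a negative, 0 passed the test, and the groups overlapped for all 6. *SRP54*, the GTPase that binds the signal sequence and pairs with SRPRA, had 77.2, 82.4 and 75.8 CPM with control siRNA and 81.2, 82.5 and 86.4 CPM with KIFC1 siRNA. These ranges overlapped, and the log2 fold change was 0.09 (SE 0.10, 95% interval -0.13 to 0.31, edgeR adjusted p = 0.887). *SRP54* and *SRPRA* transcripts were at a ratio of *SRPRA* to *SRP54* of 0.781 ± 0.055 in control libraries and 1.28 ± 0.087 in KIFC1 siRNA libraries (SD, n = 3), in reads per kilobase. That ratio also holds the gene chosen for its rise and was not tested. *SRP19*, which helps SRP54 onto the SRP RNA, had 77.4, 79.3 and 64.7 CPM against 76.4, 73.2 and 72.6 CPM, with a log2 fold change of 0.01 (SE 0.11, 95% interval -0.24 to 0.25) whose sign changed with the scaling.

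*SRP68* and *SRP72* encode a heterodimer of the part of SRP that contacts the receptor and spans the RNA. *SRP68* was nearly level, with 127.4, 126.4 and 120.3 CPM against 128.2, 124.0 and 122.6 CPM (log2 fold change 0.0029, SE 0.10, 95% interval -0.21 to 0.21). Its sign also changed with the scaling. *SRP72* had 189.6, 164.7 and 165.8 CPM with control siRNA and 146.7, 131.5 and 168.3 CPM with KIFC1 siRNA. Replicates 1 and 2 of KIFC1 siRNA lay below every control library and replicate 3 did not, so that the groups overlapped. Its log2 fold change was -0.22 (SE 0.12, 95% interval -0.48 to 0.04, edgeR adjusted p = 0.641). With 1 library left out it ran from -0.32 (without KIFC1 siRNA replicate 3) to -0.14 (without KIFC1 siRNA replicate 2). The ratio of *SRP68* to *SRP72* was 0.915, 1.05 and 0.988 in control libraries and 1.19, 1.28 and 0.992 in KIFC1 siRNA libraries, per kilobase. The groups overlapped, and the ratio was higher with KIFC1 siRNA in each same-numbered pair. The exact permutation test (two-sided, p = 0.2) cannot go below 0.1 with 3 against 3, so it cannot show whether the ratios differ.

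*SRP9* and *SRP14* encode the heterodimer of the Alu domain, which slows translation while the ribosome is targeted. *SRP9* had 516.0, 468.6 and 428.8 CPM against 579.9, 474.7 and 559.9 CPM, and *SRP14* had 177.5, 175.9 and 146.7 CPM against 198.5, 192.3 and 170.1 CPM. Both pairs of groups overlapped, with log2 fold changes of 0.19 (SE 0.11, edgeR adjusted p = 0.694) and 0.17 (SE 0.11, edgeR adjusted p = 0.758). Each gene was higher with KIFC1 siRNA in each same-numbered pair. The log2 differences of pairs 1 to 3 were 0.17, 0.019 and 0.38 for *SRP9* and 0.16, 0.13 and 0.21 for *SRP14*. The ratio of *SRP9* to *SRP14* was 2.14 ± 0.11 and 2.19 ± 0.31 per kilobase (SD, n = 3; exact permutation test, two-sided, p = 0.9, with the same lower limit of 0.1). Of the 32-base words of the *SRP9* transcript, 70.6% occurred elsewhere in the main assembly, against 21.8% for *SRP14*, 25.6% for *SRP72* and at most 15.6% for the other partners. The levels of *SRP9* are therefore uncertain, because no source used here says how multiply aligned reads were counted.

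*SEC61A1*, the pore-forming subunit of the channel, was lower in each KIFC1 siRNA library, where *SRPRA* was higher. It had 637.4, 665.8 and 702.6 CPM with control siRNA and 540.9, 562.1 and 514.1 CPM with KIFC1 siRNA. Every KIFC1 siRNA library lay below every control library, at 0.81-fold of control (95% interval 0.70 to 0.93). The log2 fold change was -0.31 (SE 0.10, edgeR unadjusted p = 0.00740, edgeR adjusted p = 0.248). Blocking on replicate number gave an edgeR adjusted p of 0.00827, where 3.07% of all genes were lower at that threshold, and over all alternatives the adjusted p ran from 0.00827 to 0.728. Leaving out any 1 library gave log2 fold changes from -0.35 to -0.27, and 0.40% of the 32-base words of its transcript occurred a second time in the main assembly. The other channel subunit, *SEC61B*, a small tail-anchored protein, had 52.2, 51.2 and 43.4 CPM against 58.8, 53.2 and 36.8 CPM. KIFC1 siRNA replicate 3 was the lowest of the 6 libraries and replicate 1 the highest, and the log2 fold change was 0.02 (SE 0.16, 95% interval -0.33 to 0.37). The ratio of *SEC61A1* to *SEC61B* was 2.18 ± 0.33 with control siRNA and 1.78 ± 0.39 with KIFC1 siRNA (SD, n = 3, per kilobase). The groups overlapped, the ratio was lower with KIFC1 siRNA in each same-numbered pair, and the exact permutation test (two-sided, p = 0.3) again cannot go below 0.1. The ratio of *SRPRA* to *SEC61A1*, which holds the gene chosen for its rise, went from 0.149 ± 0.0077 to 0.323 ± 0.026 (SD, n = 3, per kilobase).

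**Figure D3:**
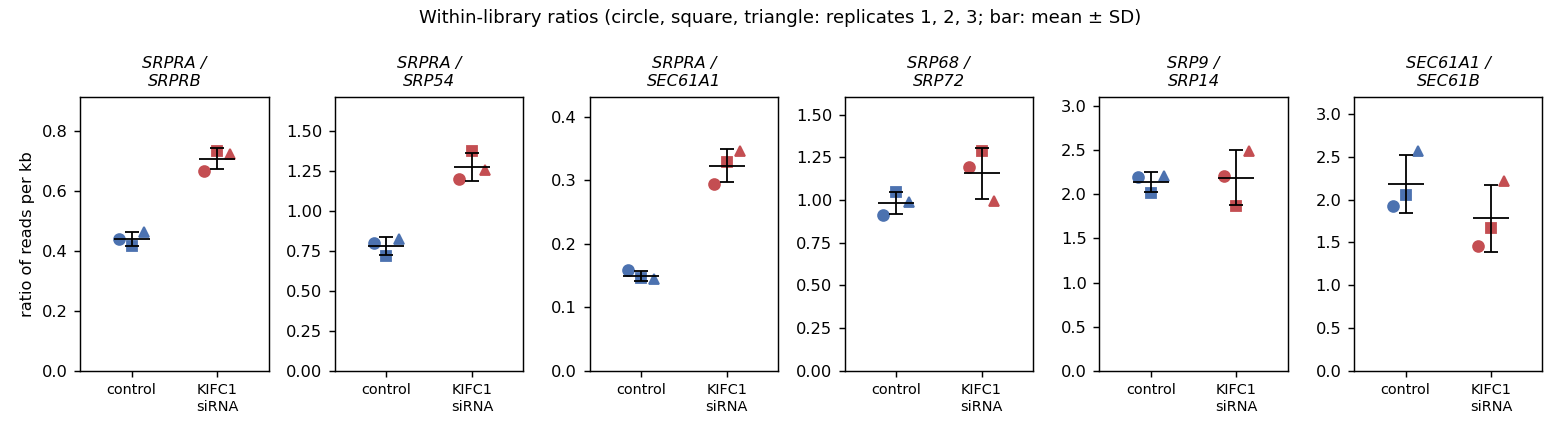
Ratios of reads per kilobase of canonical transcript between partners within each library (y axes, from 0). Control libraries are blue and KIFC1 siRNA libraries red, marker shapes show replicates 1, 2 and 3, and bars show mean ± SD. The groups overlap for the ratios within the *SRP68*-*SRP72*, *SRP9*-*SRP14* and *SEC61A1*-*SEC61B* pairs. The 3 ratios with *SRPRA* hold the gene chosen for its rise, so that their groups lie apart is a description and was not tested.

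Levels were compared between genes per kilobase of GENCODE canonical transcript, as CPM per kb. In control libraries the order from the highest was *SRP9* (318.1 ± 29.5), *SEC61A1* (187.4 ± 9.16), *SRP14* (149.0 ± 15.5), *SEC61B* (86.7 ± 8.59), *SRPRB* (63.4 ± 1.78), *SRP72* (45.0 ± 3.66), *SRP68* (44.1 ± 1.35), *SRP54* (35.9 ± 1.59), *SRPRA* (28.0 ± 0.772) and *SRP19* (26.6 ± 2.86 CPM per kb, SD, n = 3). The libraries of neighbours in this order overlapped for *SRP72* with *SRP68* and for *SRPRA* with *SRP19*, and not for the other neighbours. By these canonical lengths, *SRPRA* thus had a lower level than its anchor and its GTPase partner. After KIFC1 knockdown it stood at 48.7 ± 3.69 CPM per kb (SD, n = 3), at rank 6 instead of 9, between *SRPRB* (68.7 ± 1.99) and *SRP68* (44.1 ± 1.03), and its libraries overlapped with those of *SRP68*.

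The wider machinery of ER entry was read from 64 further genes, of which 63 had counts, and all 63 passed the filter. They cover the SRP RNA, the other Sec61 genes, Sec62, Sec63 and TRAM, the translocon-associated protein complex, signal peptidase, oligosaccharyltransferase, the multipass translocon, the ER membrane protein complex, tail-anchor insertion, nascent chain contacts and lumenal chaperones. Of the 63, 0 passed an adjusted p of 0.05 in edgeR (0.697% of all genes did) or in DESeq2, and 2 had an unadjusted p under 0.05 in edgeR (9.26% of all genes). DESeq2 gave no adjusted p for the low-count *TRAM1L1*, *NOMO3*, *EMC6* and *BAG6*. Their median log2 fold change was 0.06, with 48 positive and 15 negative, beside 0.01 over all genes, with 7698 positive and 7079 negative. Groups that did not overlap were found for 5 genes in the higher direction (7.99% of all genes) and 0 in the lower direction (7.52%). The 5 were *TRAM1*, *SPCS1*, *OSTC*, *TUSC3* and *CAMLG*, of which *OSTC* shares 38.3% of its 32-base words with other places in the genome. *TUSC3* was named after its values were seen.

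Among these 63 genes, *CAMLG*, which encodes a receptor for tail-anchored proteins at the ER membrane, had 31.8, 34.0 and 29.5 CPM with control siRNA and 41.0, 39.3 and 41.2 CPM with KIFC1 siRNA. Its log2 fold change was 0.35 (SE 0.11, edgeR adjusted p = 0.253). Blocking on replicate number gave an edgeR adjusted p of 0.0300 (0.836 at most over the alternatives), where 2.75% of all genes were higher. It was the only 1 of the 63 past the threshold in that fit. *SPCS1*, a signal peptidase subunit, went from 62.0 ± 4.75 to 74.2 ± 3.00 CPM (SD, n = 3; log2 fold change 0.26, SE 0.11, edgeR adjusted p = 0.466).

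The 2 other Sec61 genes were the alternative pore gene *SEC61A2*, with a log2 fold change of -0.20 (SE 0.12, edgeR adjusted p = 0.700), and the small subunit gene *SEC61G*, at 0.04. Among the Sec62, Sec63 and TRAM genes the extremes were *TRAM1* at 0.18 and the J-domain partner gene *SEC63* at -0.09. The 4 genes of the translocon-associated protein complex lay between -0.04 (*SSR1*) and 0.07 (*SSR2*). Signal peptidase ranged from -0.14 (*SPCS3*) to 0.26 (*SPCS1*), and the 12 oligosaccharyltransferase genes from -0.05 (*OST4*) to 0.24 (*OSTC*). The 10 genes of the ER membrane protein complex ranged from -0.14 (*EMC1*) to 0.18 (*EMC7*), nascent chain contacts from 0.09 (*RRBP1*) to 0.15 (*BTF3*, with 33.7% of its words elsewhere), and lumenal chaperones from -0.05 (*HYOU1*) to 0.02 (*HSPA5*, which encodes BiP). All of these values are log2 fold changes, and 0 of the genes passed an adjusted p of 0.05 in edgeR.

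The highest and lowest log2 fold changes of the 63 were those of *NOMO3* and *NOMO1*. Reads of the genes in this paragraph are hard to place, and the part of this in their values was not tested. *NOMO3* was counted 10, 10 and 16 times with control siRNA and 12, 45 and 9 times after knockdown, and *NOMO1* had 43, 118 and 33 against 31, 48 and 31. Their log2 fold changes of 1.00 (SE 0.57) and -0.73 (SE 0.46) came with 1 library far above the others, KIFC1 siRNA replicate 2 for *NOMO3* and control replicate 2 for *NOMO1*. Between 71.2% and 76.8% of the 32-base words of *NOMO1*, *NOMO2* and *NOMO3* occurred elsewhere in the main assembly. *BAG6*, at -0.22 in the tail-anchor group, had 12 to 54 counts, and 80.8% of its words also occurred on the 261 alternate sequences of the genome. The SRP RNA genes *RN7SL1* and *RN7SL2* had log2 fold changes of 0.48 (SE 0.32) and 0.31 (SE 0.49), with 100% and 95.2% of their words elsewhere in the main assembly. *RN7SL1* had 250, 112 and 120 counts against 167, 158 and 303. The groups overlapped, and the level of the SRP RNA cannot be read from these counts.

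**Figure D4:**
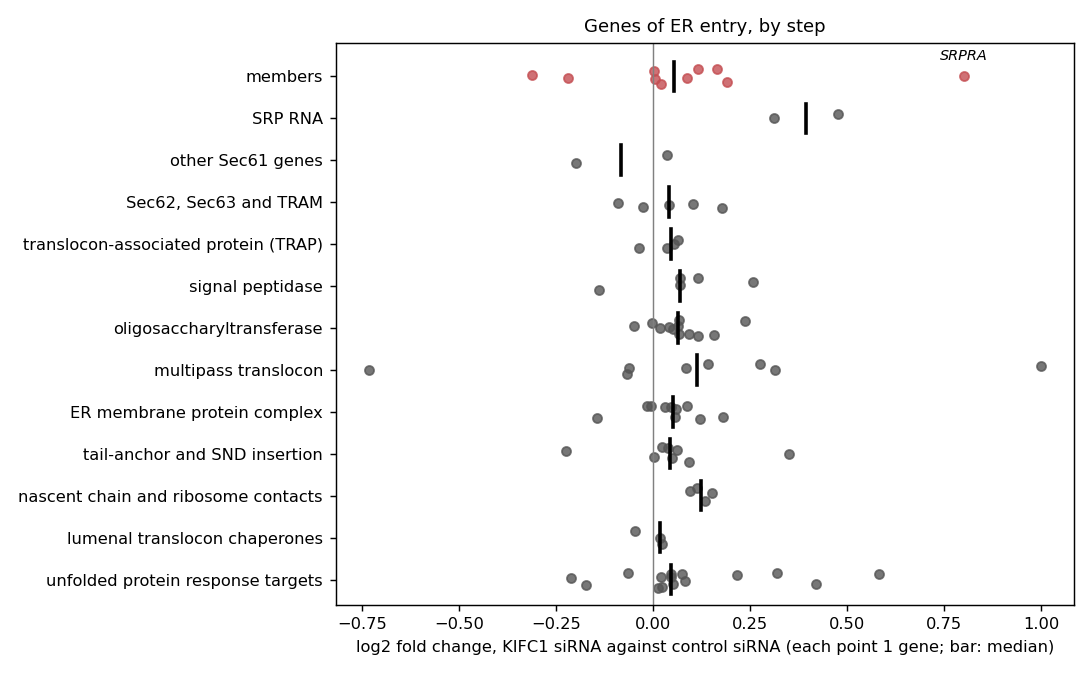
Log2 fold change of each gene, KIFC1 siRNA against control siRNA (x axis), by step of ER entry (rows; 1 point a gene, black bars for the median). *SRPRA* at 0.80 lies apart from the other members, and beyond 0.5 in either direction the other ER entry genes hold only *NOMO1* and *NOMO3*. A further row, which is not a step of ER entry, shows targets of the unfolded protein response, with *DNAJB9* at 0.58.

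Many genes of ER entry are induced when unfolded proteins collect in the ER, so 15 targets of the unfolded protein response were read beside them. Of the 15, 0 passed an adjusted p of 0.05 in edgeR (0.697% of all genes did), and 1 did in DESeq2 (*DNAJB9*, where 2.2% of genes with a DESeq2 adjusted p did). At an unadjusted p under 0.05 in edgeR there were 3 (*DNAJB9*, *DDIT3* and *HERPUD1*, where 9.26% of all genes did). Their median log2 fold change was 0.05, with 12 positive and 3 negative, and groups that did not overlap were found for 4 higher (7.99% of all genes) and 1 lower (7.52%). *DNAJB9*, a BiP co-chaperone, had 21.5, 27.0 and 26.9 CPM with control siRNA and 29.5, 40.4 and 43.1 CPM with KIFC1 siRNA. These groups did not overlap, and the log2 fold change was 0.58 (SE 0.16). The adjusted p was 0.151 in edgeR, 0.0353 in DESeq2 and 0.000426 in edgeR blocked on replicate number, and up to 0.493 over the alternatives. With the block 3 of the 15 passed as higher, where 2.75% of all genes did. In that fit *DDIT3* (log2 fold change 0.42, adjusted p = 0.0171) and *HERPUD1* (log2 fold change 0.32 without the block, adjusted p = 0.0374) also passed in edgeR, against adjusted p of 0.318 and 0.359 without the block and of up to 0.945 and 0.971 over the alternatives. The 4 with groups apart and higher were *DNAJB9*, *DDIT3*, *HERPUD1* and *ATF4* (log2 fold change 0.22, SE 0.10, edgeR adjusted p = 0.554). The 1 lower was the chaperone gene *PDIA4* (log2 fold change -0.21). Of the same 15, the chaperone gene *HSP90B1* had a log2 fold change of 0.08 and *XBP1* of 0.05. *ATF4*, *PDIA4*, *HSP90B1* and *XBP1* were named after their values were seen. *HSPA5*, at 0.02, was read with the lumenal chaperones and is not among the 15.

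The genes around *SRPRA* on chromosome 11 were read beside it. Within 100 kb of its annotated body, 14 genes are annotated, 8 had a row in the counts and 7 passed the filter. Of these 7, 0 passed an adjusted p of 0.05 in edgeR (0.697% of all genes did) or in DESeq2 (2.2% of genes with a DESeq2 adjusted p, which *GSEC* lacked). At an unadjusted p under 0.05 in edgeR there were 0 (9.26%), and 0 had groups that did not overlap (15.5%). With 7 genes, counts of 0 are near these shares. *FOXRED1*, which starts 259 bases away on the opposite strand and encodes an assembly factor of mitochondrial complex I, had 52.5, 61.4 and 59.9 CPM with control siRNA and 50.3, 64.5 and 51.3 CPM with KIFC1 siRNA. Its log2 fold change was -0.07 (SE 0.13, 95% interval -0.34 to 0.21). *FAM118B* has an annotated body that overlaps that of *SRPRA*, with 27058 bases in common on the opposite strand. These are bases of gene bodies, introns included, and the bases in exons of both genes were not counted. The strand setting of the counting is not given in the sources used here, so reads of any shared exon bases cannot be told apart. *FAM118B* had 15.2, 14.6 and 16.6 CPM against 15.8, 13.2 and 13.6 CPM (log2 fold change -0.12, SE 0.14, 95% interval -0.42 to 0.18). *RPUSD4*, *TIRAP*, *DCPS* and *ST3GAL4* lay between -0.06 and 0.02, and the low-count *GSEC*, with 7 to 27 counts, at -0.60 (SE 0.42). The upper 95% limits of the 7 lay between 0.18 and 0.39.

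**Figure D5:**
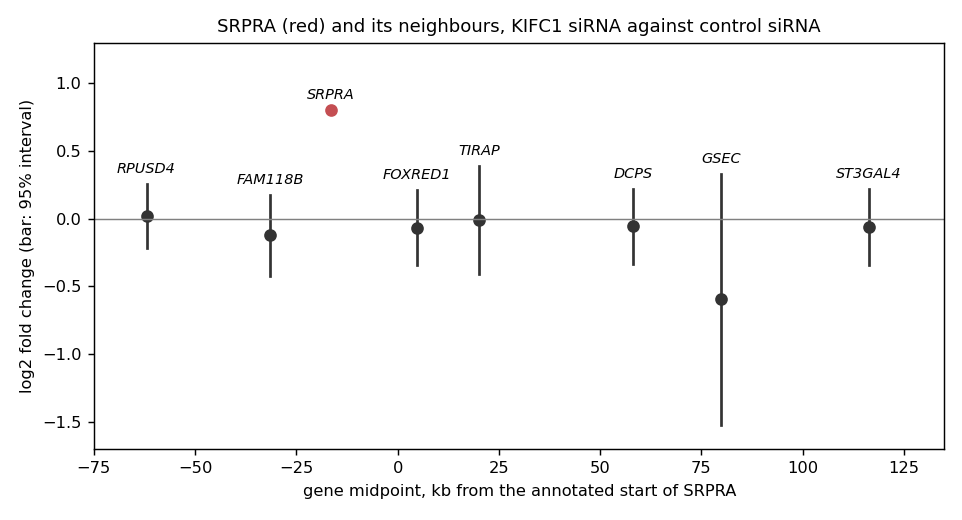
Log2 fold change (y axis) of *SRPRA* and the 7 tested genes within 100 kb of it, by the distance of each gene's midpoint from the annotated start of *SRPRA* (x axis, kb). Points are fitted values and bars 95% intervals of the neighbours. All 7 intervals include 0, while *SRPRA* (red, value only) lies at 0.80.

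The genes most like *SRPRA* across the 6 libraries were found by the root mean square difference of log2 CPM, each gene centred on its own mean, among genes with a mean log2 CPM of at least 2. They were *INTS14* (difference 0.059), *TSPAN1* (0.10), *MPRIP* (0.11), *YBX3* (0.11) and *BAALC* (0.12), each on a different chromosome from *SRPRA*. *INTS14*, a subunit gene of the Integrator complex, had 31.3, 29.9 and 30.1 CPM with control siRNA and 51.2, 53.5 and 50.9 CPM with KIFC1 siRNA. The log2 fold changes of the 5 lay between 0.64 and 0.85, which follows from their choice by likeness to *SRPRA* in the same libraries.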

How the data were processed

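H146 RNA of cells seeded in individual wells, 3 with control siRNA and 3 with KIFC1 siRNA, was sequenced 48 hours after transfection. Per the labels and methods, reads were aligned to GRCh38 with HISAT2 2.2.1 and counted with featureCounts 2.0.8, and the authors deposited raw counts per NCBI gene ID. The annotation, the strand setting and the treatment of reads with several alignments are not given in the sources used here. Of 28395 IDs, 27745 matched a RefSeq GRCh38.p14 symbol, and the 650 others held 0.062% of counts.

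The test was edgeR's (4.0.16, R 4.3.3) robust quasi-likelihood fit with TMM scaling. The filter was filterByExpr on the groups, *KIFC1* being kept, and p-values of 14777 genes were adjusted by Benjamini-Hochberg (threshold 0.05). CPM are TMM-scaled. A standard error is the size of the log2 fold change over the root of the F statistic, and 95% intervals use the fit's degrees of freedom. The alternatives used DESeq2 1.42.0, limma 3.58.1, other scaling and filters, the replicate number as a block, and each library left out. The edgeR fit was tried on simulated counts with 200 genes changed and the same spread for every gene. It recovered 26 of them (13%) at a log2 change of 0.5 and 183 (91.5%) at 1. False calls were 1 and 17, and 0 with no gene changed. In such counts the fit without the block would thus miss most changes of 0.5 or less. The changed genes were drawn from all levels, no replicate effect was simulated, and the fit with the block was not tried. No source used here says whether replicates were grown as separate cultures, so p-values measure the spread between these libraries, and replicates of a group differed by more than sampling noise (chi-square per gene 5.96 to 34.7). The biological coefficient of variation was 13.1%. Intervals do not cover errors of alignment.

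Both groups use replicate numbers 1 to 3. With group means taken out, same-numbered libraries correlated at 0.488, 0.386 and 0.453 over 11801 genes, and others at -0.424 to -0.031. Taking out the means forces negative values beside positive ones, so the negative values are no separate evidence. The numbers were taken as pairs found in the data (genes are not independent replicates), and no label states pairs. The block was thus chosen on the libraries that it was used to test. The blocked value is given where it changes a call, and the permutation tests of ratios did not use the pairs.

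The members, lists and sequence words were chosen with earlier results of these data known. Named are the members, list genes past the threshold in either edgeR fit, the extremes of each ER entry list, *KIFC1*, neighbours of *SRPRA* within 100 kb, and the 5 genes most like it. Canonical transcripts are those of GENCODE 44, and 32-base words were looked up in hg38. Tables and figures were made with Python 3.11.15. A marker gene of the neuroendocrine list is not reported here.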

Additional observations from a re-analysis of the deposited data

How the results depend on the processing

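The difference of *SRPRA* (log2 fold change 0.80) moved by less than the spread between replicates under all 13 alternatives. These fits use the same counts in which its rise chose it, so this describes the processing and is no support for the rise. Of the 117 fits of its 9 partners under the alternatives, 101 kept direction and side of the threshold, and the count of partners called stayed at 0 apart from 1 lower (*SEC61A1*) with the replicate number as a block. That block also gave 1 ER entry gene higher and 3 unfolded protein response targets higher, and DESeq2 and the fit without a filter on low counts gave 1 such target each. Among the markers, *NCAM1* passed with the block and DESeq2. The block changed no other call of the lists. All genes called (48 higher and 55 lower) became 126 and 148 with DESeq2, 121 and 144 with no filter, and 407 and 454 with the block. Leaving out control replicate 3 left 9 higher and 15 lower, the fewest, and leaving out KIFC1 siRNA replicate 3 gave 194 and 274, the most. Leaving out control replicates 1 or 2 or KIFC1 siRNA replicates 1 or 2 gave 17, 10, 22 and 37 higher and 17, 16, 17 and 27 lower. With a library left out, no call was gained among the partners, ER entry genes, unfolded protein response targets or neighbours, but among the markers *CHGA* passed without KIFC1 siRNA replicate 1 and *DLL3* and *NCAM1* without KIFC1 siRNA replicate 3. Signs changed only for partners near 0, and the cause was not tested. *SRP19* was at -0.0054 with library size only and -0.0030 with no filter, and from -0.082 to 0.059 with 1 library left out. *SRP68* was at -0.0015 with DESeq2, -0.0016 with its size factors, -0.0097 with library size only and -0.0056 with no filter, and from -0.023 to 0.019 with 1 left out. *SEC61B* was at -0.0038 with limma-voom and -0.00039 with the block, and from -0.12 to 0.20 with 1 left out. The median of the 9 partners ranged from -0.02 to 0.07 with 1 left out. With 3 libraries a group, the intervals of the partners reach from 0.70-fold (*SEC61A1*) to 1.36-fold (*SRP9*), and a partner that missed the threshold is not shown to be unchanged.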
